A study of Mus musculus with 8 samples.

Results

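The 9 genes of lysosomal antigen processing followed here were fixed by name and read through the stroma of the mouse thymus: Prss16, Ctsl, Ctss, Ctsb, Ctsd, Ctsh, Ctsz, Lgmn and Ifi30. They are 9 of the 55487 genes in the count table, and all 9 were kept whatever their values. They were listed with earlier results of these data known. Of these, 8 encode proteases, whereas Ifi30 encodes a thiol reductase that works in the same compartment. Each was read in 6 cell classes: cortical thymic epithelial cells (cTEC), Ccl21a TEC, Aire TEC, tuft-like TEC, fibroblasts and endothelium.

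Epithelial cells of the thymus show peptides on MHC class II molecules to developing CD4 T cells, and lysosomal proteases both cut the proteins and trim the invariant chain that guards the peptide groove. Cortical epithelium, which carries out positive selection, is known for cathepsin L and for the thymus-specific serine protease, and both shape the peptides that CD4 T cells are selected on. Antigen-presenting cells outside the cortex generally use cathepsin S for the last cut of the invariant chain.

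The cells came from C57BL/6 mice of 1 and 16 weeks with no further treatment, and were depleted of CD45-positive and Ter119-positive cells and enriched for EpCAM-positive cells. Thymi of several mice were combined into 1 pool per age, and each pool was run in 2 wells of a droplet instrument, so the spread between wells covers capture and library preparation and not mice. Each cell carries its mRNA as unique molecular identifiers (UMIs, single captured molecules read from the 3′ end) and the counts of 27 antibody tags (CITE-seq). The 1-week wells held 1846 and 1430 cells and the 16-week wells 1939 and 4738, with medians of 6668.5 to 8690.5 UMIs a cell. Age and pool cannot be told apart.

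The classes came from clusters built without the 9 genes and without their pathway lists, and were named from cell type markers. All 9 Aire TEC, tuft-like TEC and fibroblast markers and all 8 endothelial markers were highest in their class, as were 7 of 10 Ccl21a TEC markers and 6 of 9 cTEC markers. Dll4, Cxcl12 and Kitl, of the cTEC list, were highest in endothelium. Of the Ccl21a TEC list, Pdpn was highest in fibroblasts, Ly6a in endothelium and Plet1 in tuft-like TEC. The same lists had named the clusters, so these counts describe the classes and are no separate check. In the order 1-week replicates 1 and 2, then 16-week replicates 1 and 2, there were 846, 562, 69 and 165 cTEC, 87, 81, 542 and 1231 Ccl21a TEC, 39, 32, 323 and 864 Aire TEC, 197, 182, 535 and 1243 fibroblasts and 75, 66, 87 and 170 endothelial cells. Tuft-like TEC were read at 16 weeks only, in 42 and 79 cells. Because of the sort these numbers are not shares of the tissue. A further 1116 of 6081 epithelial cells lay in clusters that met no naming rule and stand outside the classes, 276 and 212 of them in the 1-week and 170 and 458 in the 16-week wells. A cTEC cluster of 114 cells had 107 of them in 1-week replicate 1 and carried collagen genes among its leading genes. Without it the number of the 9 genes called in each comparison did not change. A cTEC cluster led by Chga, Sptssb and Pth (187 and 147 of the 1-week cells) and an Aire TEC cluster led by Reg1, Lypd8 and Ccl6 (184 cells) had no marker of their class among the 10 leading genes, as was so for several other clusters of these classes. Among these were genes known from endocrine cells in the former and from gut in the latter, and both clusters were left out in turn as alternatives chosen after the data were seen. The cTEC cluster led by haemoglobin genes (310 and 241 of the 1-week cells) also had no cTEC marker among its 10 leading genes. No fit without it was made. There were 15 barcodes that occurred in more than 1 library, in 35 cells.

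Prss16 encodes the thymus-specific serine protease (chr13:22002173-22009742, minus strand, GRCm38). It was read at 3874 and 3631 CPM (UMIs of the gene per 1000000 UMIs of the summed cells) in the 1-week wells of cTEC and at 3049.8 and 4308 CPM in the 16-week wells. Ccl21a TEC held 631 and 715 CPM at 1 week and 119 and 110.3 CPM at 16 weeks. Aire TEC held 634 and 300.4 CPM at 1 week and 65.4 and 75 CPM at 16 weeks. Every well of cTEC lay above every well of the other 5 classes, and the next classes in the order overlapped one another at 1 week. Summed over the wells of a pool and tested with edgeR, with the pool as a block, Prss16 was 4.84 ± 0.74 (SE) log2 units higher in cTEC than in Aire TEC (adjusted p = 0.00142). Against Ccl21a TEC it was 4.29 ± 0.72 higher (edgeR adjusted p = 0.00991).

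Prss16 UMIs were also found in cells that are not epithelial. Fibroblasts held 315 and 412 CPM at 1 week and 26.2 and 31.7 CPM at 16 weeks, and endothelium held 365, 418, 38.0 and 40.7 CPM in the same order. The ratio of Prss16 to Psmb11, the proteasome subunit that defines cTEC, was 4.01, 3.75, 4.27 and 4.52 in cTEC and 3.74, 3.96, 3.49 and 4.09 in fibroblasts. The ratio of Prss16 to Ccl25, a chemokine of the same cells, differed more, at 0.693, 0.792, 0.851 and 0.923 in cTEC and 1.31, 0.908, 0.568 and 0.57 in fibroblasts. The ratio of Prss16 to Psmb11 was 5.28, 4.43, 3.58 and 3.64 in Aire TEC, 4.91, 5.81, 6.40 and 7.39 in Ccl21a TEC and 2.77, 3.97, 13 and 6.44 in endothelium, where the last pair rests on 2 and 9 Psmb11 UMIs. After each cell was thinned to 2000 UMIs, 96.1% of 1-week cTEC and 52.5% of 1-week fibroblasts had a Prss16 UMI (99.7% and 98.7% before thinning). At 16 weeks the thinned shares were 83.3% and 6.97% (95.7% and 25.8% before). The Prss16 level outside cTEC is therefore given here as a level of UMIs, with no reading as expression.

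Ctsl encodes cathepsin L, the cysteine protease that cuts the invariant chain in cortical epithelium (chr13:64359337-64370890, minus strand). cTEC held 12562 and 11632 CPM at 1 week and 10316 and 13044 CPM at 16 weeks. Ccl21a TEC followed with 5843 and 5614 CPM at 1 week and 1695 and 1759 CPM at 16 weeks. Aire TEC held 1720.0 and 896 CPM at 1 week and 327 and 382 CPM at 16 weeks. cTEC lay above all other classes in every well, and Ccl21a TEC above Aire TEC in every well. Ctsl was 4.12 ± 0.50 log2 units higher in cTEC than in Aire TEC (edgeR adjusted p = 0.000492) and 1.97 ± 0.46 higher than in Ccl21a TEC (edgeR adjusted p = 0.0308). Aire TEC in turn were below Ccl21a TEC (log2 fold change -2.14 ± 0.46, edgeR adjusted p = 0.0118). The Ctsl call between cTEC and Ccl21a TEC was made in 15 of the 16 alternatives other than the fit without the pool block. It was lost without that block (edgeR adjusted p = 0.231).

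Ctsl was also abundant outside the epithelium. Fibroblasts held 1509, 2017, 1466 and 1706 CPM over the 4 wells, endothelium 1545, 1383, 835 and 1292 CPM, and tuft-like TEC 408 and 401 CPM at 16 weeks. Ccl21a TEC and fibroblasts overlapped at 16 weeks, and fibroblasts, endothelium and Aire TEC overlapped in turn at 1 week. The number of Ctsl UMIs for each Prss16 UMI differed from that of cTEC most at 16 weeks. cTEC carried 3.24, 3.20, 3.38 and 3.03 Ctsl UMIs for each Prss16 UMI, whereas 16-week fibroblasts carried 56.1 and 53.7 and 16-week Ccl21a TEC 14.3 and 15.9. At 1 week fibroblasts carried 4.79 and 4.90 and endothelium 4.24 and 3.31. If all Prss16 UMIs of a class came with Ctsl at the cTEC ratio of the same well, they would account for 5.63 to 6.03% of the Ctsl of 16-week fibroblasts, 67.7% and 65.4% of that of 1-week fibroblasts and 19.0 to 40.8% of that of Ccl21a TEC. In 1-week Aire TEC they would account for 119% and 107%, and in 1-week endothelium for 76.5% and 96.7%. The Ctsl left over was 3796, 3325, 1293 and 1425 CPM in Ccl21a TEC and 487, 698, 1378 and 1610 CPM in fibroblasts, and -335, -66.4, 105 and 155 CPM in Aire TEC. In endothelium it was 363, 45.6, 707 and 1169 CPM, and in tuft-like TEC 198 and 132 CPM at 16 weeks. Ccl21a TEC, fibroblasts and endothelium thus kept a Ctsl level beyond this ratio in all 4 wells and tuft-like TEC in both of theirs. The 1-week Aire TEC did so in neither.

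**Figure D1:**
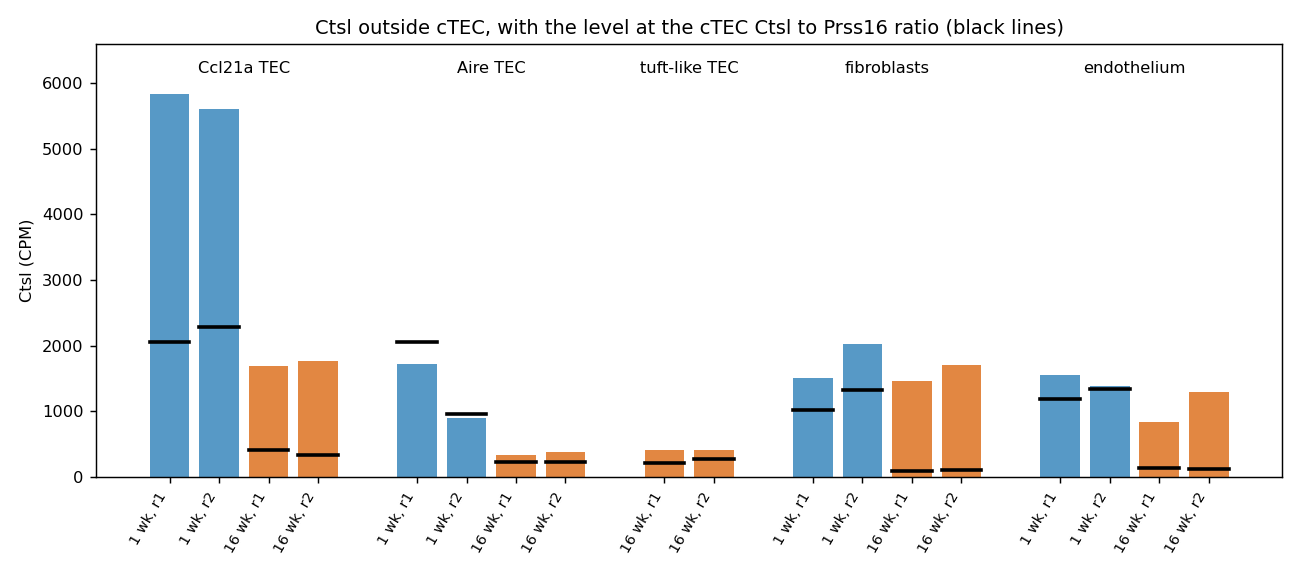
Ctsl level in CPM (bars) in each well of the classes outside cTEC, blue for 1 week and orange for 16 weeks, r1 and r2 being the replicate wells. Black lines give the Ctsl that the Prss16 UMIs of the same class would bring at the cTEC ratio of that well. The bars of Ccl21a TEC, fibroblasts and endothelium rise above their lines in all 4 wells. Those of 1-week Aire TEC (1720.0 and 896 CPM) lie below theirs.

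Ctss encodes cathepsin S (chr3:95526786-95556403, plus strand), the cysteine protease that finishes invariant chain removal in most antigen-presenting cells. Aire TEC held 186 and 171 CPM at 1 week and 191 and 151 CPM at 16 weeks. Ccl21a TEC held 51.6, 41.4, 27.2 and 29.7 CPM, and tuft-like TEC 37.7 and 42.2 CPM. cTEC held 6.45 and 4.88 CPM at 1 week and 11.8 and 9.79 CPM at 16 weeks. Aire TEC stood apart above every other class at both ages, and cTEC were last or next to last. The cTEC level was close to that of fibroblasts, which held 2.96 and 2.75 CPM at 1 week and 15.6 and 11.2 CPM at 16 weeks. Ctss was lower in cTEC than in Aire TEC (log2 fold change -4.44 ± 0.56, edgeR adjusted p = 0.000558). It was also lower in cTEC than in Ccl21a TEC (-2.23 ± 0.54, edgeR adjusted p = 0.035) and higher in Aire TEC than in Ccl21a TEC (2.21 ± 0.51, edgeR adjusted p = 0.0167). The call against Ccl21a TEC was lost without 1-week replicate 2 (-2.06) and without 16-week replicate 2 (-2.21).

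At 2000 UMIs a cell, 31.0% of Aire TEC had a Ctss UMI at 1 week and 20.3% at 16 weeks (80.3% and 49.7% before thinning), against 2.13% and 2.14% of cTEC (10.4% and 14.5% before). Fibroblasts gave 0.792% and 3.32% (5.01% and 12.1% before thinning). The thinned cTEC share thus lay above that of fibroblasts at 1 week and below it at 16 weeks. Ctss is also a gene of myeloid cells, and markers of these cells were present in Aire TEC. The sum of 11 myeloid markers was 240.0, 759, 401 and 522 CPM over the 4 wells of Aire TEC, of which Lyz2 made up 149, 672, 316 and 370 CPM. Of the 11 markers 2, 3, 0 and 0 were at 0 in these wells, and Ptprc was at 1.64, 2.09, 8.30 and 8.99 CPM. In the other epithelial classes the sum was 14.0 to 109 CPM. In Aire TEC with no UMI of any of these markers Ctss was at 205, 183, 157 and 117 CPM, in 11, 9, 106 and 322 cells. These levels lie above that of the whole class in both 1-week wells and below it in both 16-week wells. With Lyz2 not counted among the markers Ctss was at 199, 163, 159 and 128 CPM.

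The promoter of Ctss carries the letters GAAANNGAAA, a pattern of interferon-responsive elements. In the RefSeq promoter table (GRCm38.p6) the pattern was present on either strand within 250 bases before the start site in 2.98% of 32851 entries. The match begins 21 bases before the Ctss start site and is shown in capitals within the 60 bases that end at it, chr3:95526726-95526785, plus strand:
Ctss: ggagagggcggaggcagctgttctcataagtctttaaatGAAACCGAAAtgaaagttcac
Among the other 5 members with an entry in that table (Ctsl, Ctsd, Ctsz, Lgmn and Ifi30) the pattern had no match in this window.

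The cortical and medullary genes were set against each other within each sum of cells, where total counts cancel. The log2 ratio of Ctsl to Ctss was 10.72, 10.95, 9.65 and 10.24 in cTEC and 3.20, 2.38, 0.77 and 1.33 in Aire TEC, in the same order of wells. Ccl21a TEC lay between them at 6.80, 7.05, 5.91 and 5.84. The difference between cTEC and Aire TEC was 8.47 ± 0.65 (SD, n = 4 libraries) and that between cTEC and Ccl21a TEC 3.99 ± 0.28. For Prss16 to Ctss the cTEC ratio was 9.02, 9.27, 7.89 and 8.64, and that of Aire TEC 1.76, 0.81, -1.53 and -1.0. The difference was 8.70 ± 1.09, and 5.81 ± 0.70 against Ccl21a TEC. All 4 libraries had the same sign in each of these differences. With 4 libraries of 2 pools no permutation can reach p = 0.05, so none was run. Both ratios of Aire TEC lay below those of cTEC and Ccl21a TEC in every well of the same age.

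**Figure D2:**
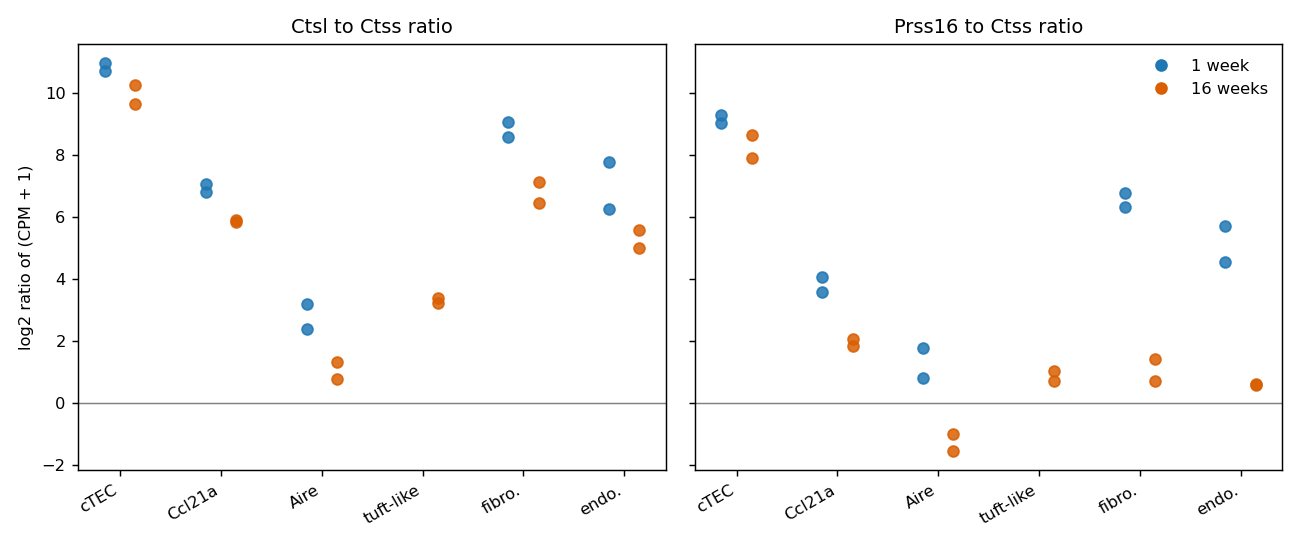
Log2 ratio of Ctsl to Ctss (left) and of Prss16 to Ctss (right) on CPM + 1, for each cell class, with 1 point for each well (blue for 1 week, orange for 16 weeks). cTEC lie highest in both panels (9.65 to 10.95 for Ctsl to Ctss) and Aire TEC lowest for Ctsl to Ctss (0.77 to 3.20). The 16-week points of Aire TEC fall below 0 for Prss16 to Ctss.

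Ctsh and Ctsz went with Ctss. Ctsh encodes cathepsin H, chiefly an aminopeptidase (chr9:90054152-90076089, plus strand), and was read in Aire TEC at 449 and 356 CPM at 1 week and at 296 and 332 CPM at 16 weeks. cTEC held 14.0, 10.2, 16.1 and 20.7 CPM and Ccl21a TEC 27.3, 56.3, 46.8 and 53.0 CPM. Aire TEC stood above all other classes and cTEC were lowest at both ages. Ctsz encodes cathepsin Z, a carboxypeptidase (chr2:174427493-174439039, minus strand). Aire TEC held 468, 473, 312 and 335 CPM of it, Ccl21a TEC 63.3, 65.5, 68.3 and 77.1 CPM and cTEC 23.9, 22.6, 40.6 and 40.6 CPM. Fibroblasts held 213, 219, 291 and 311 CPM, close below Aire TEC at 16 weeks. The order of the 3 epithelial classes was the same for both genes in all 4 wells. In Aire TEC with no UMI of a myeloid marker Ctsh was at 507, 162, 213 and 215 CPM and Ctsz at 441, 805, 248 and 269 CPM. Both 16-week levels of each gene were below those of the whole class and above those of cTEC, and the part of myeloid RNA was not tested. With Lyz2 not counted among these markers Ctsh was at 464, 238, 229 and 248 CPM and Ctsz at 473, 539, 276 and 311 CPM. Without the cluster led by Reg1 Ctsh was at 456, 320, 288 and 245 CPM and Ctsz at 422, 458, 283 and 279.8 CPM. There, and in the cells with no UMI of any myeloid marker, 16-week Ctsz lay below both fibroblast wells. Ctsh was lower in cTEC than in Aire TEC (log2 fold change -4.52 ± 0.38, edgeR adjusted p = 0.000124), and Ctsz differed by -3.66 ± 0.29 (edgeR adjusted p = 0.000107). Against Ccl21a TEC the cTEC values were -1.52 ± 0.35 for Ctsh (edgeR adjusted p = 0.0291) and -1.11 ± 0.27 for Ctsz (edgeR adjusted p = 0.0343). Both of these calls were lost without 1-week replicate 2, at -1.07 and -0.97, and without the Aire TEC cluster led by Reg1, at -1.42 and -1.01.

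Ifi30 encodes the gamma-interferon-inducible lysosomal thiol reductase, which opens disulphide bonds of antigens (chr8:70762774-70766663, minus strand). Aire TEC held 1017 and 918 CPM at 1 week and 337 and 336 CPM at 16 weeks. cTEC came next with 331 and 296 CPM, then 137 and 135 CPM, followed by Ccl21a TEC with 219, 234, 87.7 and 90.1 CPM. The order was the same at both ages, with no overlap. In Aire TEC with no UMI of a myeloid marker Ifi30 was at 1144, 1447, 176 and 237 CPM. With Lyz2 not counted among these markers it was at 1151, 1054, 308 and 302 CPM, so the lower 16-week levels depended on Lyz2. Ifi30 was lower in cTEC than in Aire TEC (log2 fold change -1.41 ± 0.21, edgeR adjusted p = 0.00114) and higher in Aire TEC than in Ccl21a TEC (2.01 ± 0.21, edgeR adjusted p = 0.000684). Its difference of 0.60 ± 0.21 between cTEC and Ccl21a TEC did not pass the test (edgeR adjusted p = 0.103). Its promoter carries the letters CACGTG, an E-box of the kind bound by lysosomal gene regulators such as TFEB, which is present in 6.02% of the entries. The capitals mark it in chr8:70766827-70766886, minus strand, and it begins 196 bases before the start site:
Ifi30: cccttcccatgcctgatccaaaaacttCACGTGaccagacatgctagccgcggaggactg
Ctsd held 2 matches of CACGTG, 245 and 98 bases before its start site, Ctsl 1 at 236 and the second entry of Lgmn 1 at 49.

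Ctsb, Ctsd and Lgmn did not set cortex against medulla in the same way. Ctsb encodes cathepsin B, a cysteine endo- and carboxypeptidase (chr14:63122462-63145923, plus strand). cTEC held 59.7, 61.1, 116 and 106 CPM of it, Ccl21a TEC 106, 117, 153 and 156 CPM and Aire TEC 111, 106, 146 and 128 CPM. cTEC lay below both other classes within each age, by -0.52 ± 0.19 log2 units against Aire TEC (edgeR adjusted p = 0.061) and -0.64 ± 0.19 against Ccl21a TEC (edgeR adjusted p = 0.0704), neither of which passed. Ctsd encodes cathepsin D, the aspartic protease of lysosomes (chr7:142375911-142388038, minus strand). Aire TEC were lowest with 64.9, 56.3, 64.7 and 67.8 CPM, while cTEC held 104, 96.6, 107 and 115 CPM and Ccl21a TEC 135, 116, 107 and 118 CPM. Ctsd was 0.81 ± 0.22 log2 units higher in cTEC than in Aire TEC (edgeR adjusted p = 0.0193) and lower in Aire TEC than in Ccl21a TEC (log2 fold change -0.92 ± 0.22, edgeR adjusted p = 0.02). A readthrough transcript shares exons with Ctsd, which makes its level less certain. Lgmn encodes legumain, the asparaginyl endopeptidase (chr12:102394084-102439813, minus strand). It was at 28.8, 30.3, 16.9 and 16.7 CPM in cTEC and 30.2, 34.5, 19.6 and 21.4 CPM in Ccl21a TEC, and at 13.1, 31.3, 12.3 and 16.3 CPM in Aire TEC. Its difference passed the test in none of the 3 epithelial comparisons.

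**Figure D3:**
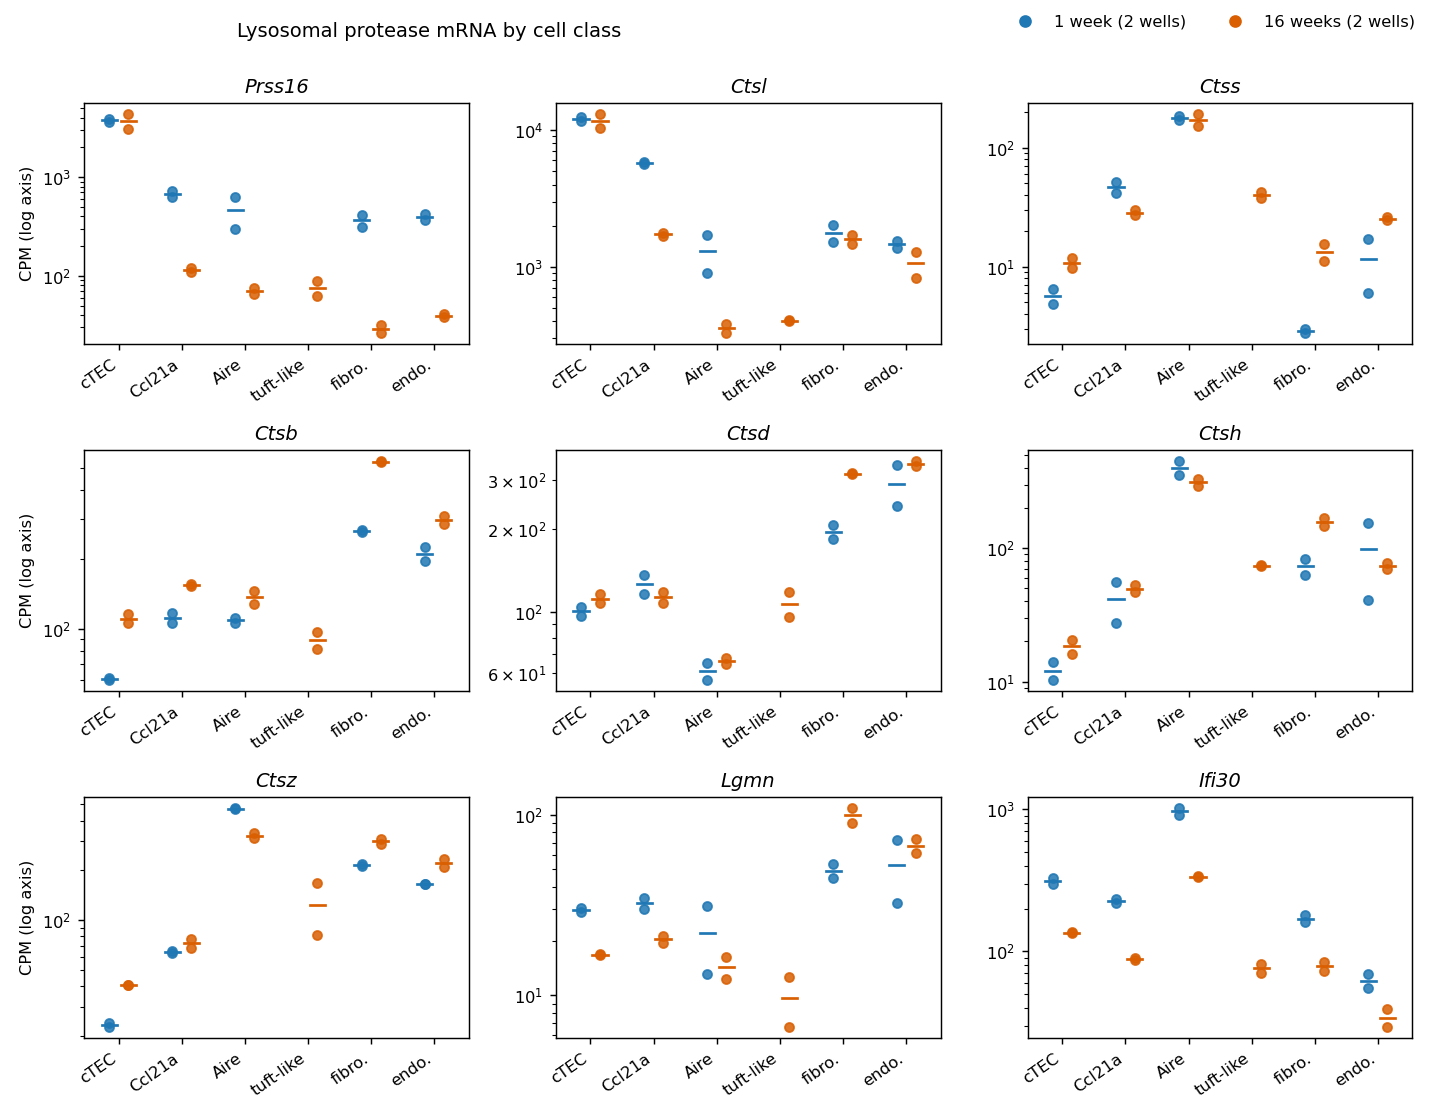
Level of each of the 9 genes (CPM, log axis) in the 6 cell classes, with 1 point for each well and a bar at the mean of an age (blue for 1 week, orange for 16 weeks). Prss16 and Ctsl peak in cTEC. Ctss, Ctsh, Ctsz and Ifi30 peak in Aire TEC, and Ctsb, Ctsd and Lgmn in fibroblasts or endothelium. For Ctsz at 16 weeks fibroblasts (291 and 311 CPM) lie close below Aire TEC (312 and 335 CPM).

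In all, 7 of the 9 genes passed the test between cTEC and Aire TEC, 3 higher in cTEC (Prss16, Ctsl and Ctsd) and 4 lower (Ctss, Ctsh, Ctsz and Ifi30). The background was high in this comparison, where 36.8% of 18629 genes passed, 14.9% higher and 21.9% lower. Its split moved with the cells kept: the higher share of all calls went from 40.5% to 51.4% without the fibroblast cluster led by Car3, as the median of all genes went from -0.09 to 0.10, and to 51.8% with a marker level of 0.1. The same 7 of the 9 genes were called in both. Between cTEC and Ccl21a TEC 5 of 9 passed, 2 higher (Prss16 and Ctsl) and 3 lower (Ctss, Ctsh and Ctsz), where 9.12% of all genes passed, 4.63% higher and 4.49% lower. Between Aire TEC and Ccl21a TEC 6 of 9 passed, 4 higher in Aire TEC (Ctss, Ctsh, Ctsz and Ifi30) and 2 lower (Ctsl and Ctsd), against 21.4% of all genes, 12.8% higher and 8.56% lower. The 3 comparisons share samples and are not independent of one another. Each sum stands for 1 pool, and the fit took 1 spread over 11 sums with 4 residual degrees of freedom. Without the block for the pool edgeR called 4, 0 and 2 of the 9 genes in these comparisons (6, 5 and 6 at an unadjusted p under 0.05), and DESeq2 with the block called 8, 5 and 6.

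Tuft-like TEC, chemosensory cells of the medulla, lay below Aire TEC in the genes that marked the latter. At 16 weeks Ctsh was at 73.1 and 74.5 CPM, Ctsz at 82.0 and 167 CPM and Ifi30 at 70.9 and 81.5 CPM, each below both Aire TEC wells. In the fit tuft-like TEC were 1 sum of the 16-week pool, without a replicate. Their SE and p therefore rest on the spread of the other classes. The fold changes also draw on 1-week cells through the pool block and are not the plain 16-week differences. Ifi30 was lower than in Aire TEC (log2 fold change -2.40 ± 0.30, edgeR adjusted p = 0.00265), Ctsh differed by -2.56 ± 0.48 (edgeR adjusted p = 0.0153) and Ctsz by -1.85 ± 0.36 (edgeR adjusted p = 0.0183). These 3 of 9 genes were called, all lower, against 7.89% of all genes in either direction, 4.05% higher and 3.83% lower. The Ctsz call was lost without 16-week replicate 1 (-1.52) and without the Aire TEC cluster led by Reg1 (-1.57). With 20 neighbours only the Ifi30 call was kept, and without the pool block all 3 calls were lost. Ctss, at 37.7 and 42.2 CPM, differed by -2.47 ± 0.73 and did not pass (edgeR adjusted p = 0.0708). Ptprc was at 26.6 and 18.3 CPM in tuft-like TEC, above the other classes, and its part in these levels was not tested.

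Fibroblasts and endothelium carried the general lysosomal proteases at higher levels than the epithelium, taken as the mean of cTEC, Ccl21a TEC and Aire TEC on the log scale. Ctsb was at 268, 263, 532 and 527 CPM in fibroblasts and at 197, 226, 283 and 307 CPM in endothelium. Ctsd was at 184, 206, 314 and 318 CPM in fibroblasts and at 241, 340.1, 350.4 and 337 CPM in endothelium. For both genes each well lay above every epithelial well of its own age. Lgmn was at 44.4, 53.1, 89.8 and 108 CPM in fibroblasts and at 32.6, 72.6, 61.3 and 72.9 CPM in endothelium. Relative to TEC, fibroblasts were higher in Ctsb by 1.93 ± 0.14 log2 units (edgeR adjusted p = 1.15e-05), in Lgmn by 1.92 ± 0.33 (0.00182), in Ctsz by 1.56 ± 0.20 (0.000278), in Ctsd by 1.55 ± 0.16 (9.85e-05) and in Ctsh by 0.97 ± 0.25 (0.0161). The Ctsh call was lost without 1-week replicate 1 (0.92). Fibroblasts were lower in Prss16 (-2.41 ± 0.60, edgeR adjusted p = 0.0132), Ctss (-2.16 ± 0.47, 0.0067) and Ifi30 (-1.01 ± 0.18, 0.00205). Ctsl, at -0.73 ± 0.38, did not pass (edgeR adjusted p = 0.172). That is 8 of 9 genes, 5 higher and 3 lower, where 33.3% of all genes passed, 18% higher and 15.3% lower.

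Endothelium gave 7 of 9, 4 higher and 3 lower, against 25.4% of all genes, 13.9% higher and 11.5% lower. Ctsd was higher by 1.75 ± 0.17 log2 units (edgeR adjusted p = 6.24e-05), Lgmn by 1.48 ± 0.35 (0.014), Ctsb by 1.22 ± 0.15 (0.000315) and Ctsz by 1.03 ± 0.20 (0.00525). Ifi30 was lower (-2.43 ± 0.20, edgeR adjusted p = 3.09e-05), as were Prss16 (-2.29 ± 0.61, 0.022) and Ctsl (-1.25 ± 0.39, 0.0436). The Ctsl call was lost without 1-week replicate 2 (-1.34) and without 16-week replicate 1 (-1.20), and was made in 10 of the 16 alternatives other than the fit without the pool block. Ctss (-1.01 ± 0.49) and Ctsh (0.43 ± 0.27) did not pass.

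**Figure D4:**
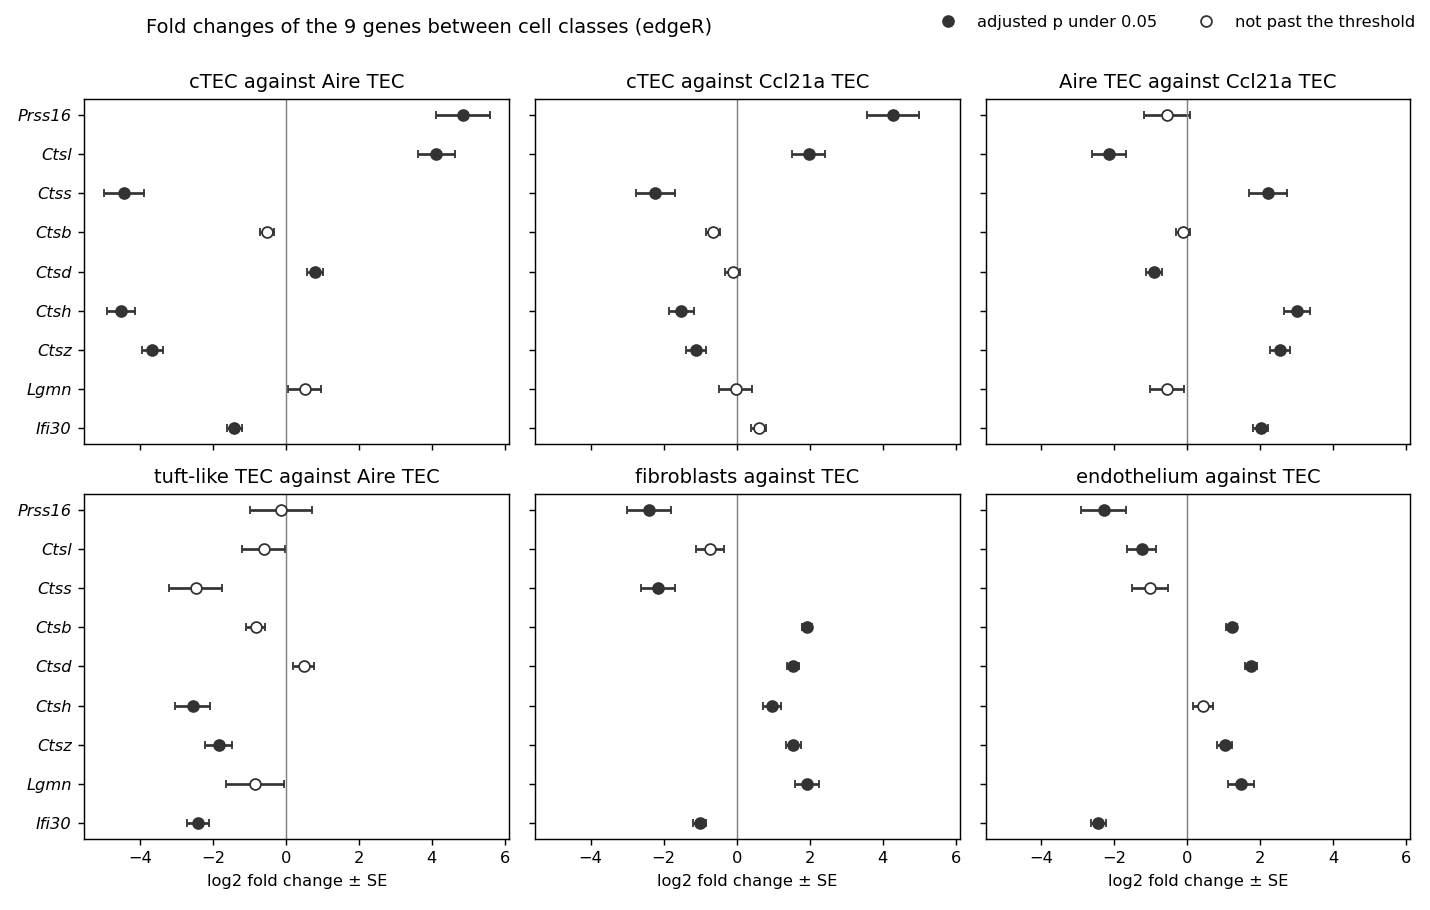
Log2 fold change of each gene in 6 comparisons of cell classes with its standard error (horizontal bars), from edgeR on sums per pool. Filled points have an adjusted p under 0.05. In the first panel Prss16, Ctsl and Ctsd lie right of 0 with filled points and Ctss, Ctsh, Ctsz and Ifi30 left of it, and in the fibroblast panel Ctsb, Lgmn, Ctsz, Ctsd and Ctsh lie right.

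The antibody tags gave another sorting of the epithelium that used no RNA of these genes. A cortical gate held cells low in UEA1 (a lectin that binds medullary epithelium), Sca1 and CD80, and a mature medullary gate cells high in UEA1, MHC class II and CD80. The cortical gate was 84.8% cTEC at 1 week (1399 cells) and 42.9% at 16 weeks (324 cells), where 38.6% were unnamed epithelial cells. The mature medullary gate was 24.1% Aire TEC, 64.3% unnamed epithelial cells and 9.02% cTEC at 1 week (266 cells) and 86.9% Aire TEC at 16 weeks (1168 cells). Ctss was at 6.60, 4.66, 16.3 and 11.2 CPM in the cortical and at 114, 110.3, 180.5 and 140.1 CPM in the mature medullary gate. Ctsl was at 12138, 10825, 7136 and 9539.6 CPM in the cortical and at 3661, 2874, 383 and 486 CPM in the mature medullary gate. The gates were apart for both genes in every well, in opposite directions. The log2 fold change was 3.16 ± 0.47 for Ctsl (edgeR adjusted p = 0.0018), 3.64 ± 0.73 for Prss16 (0.0059) and -3.76 ± 0.30 for Ctss (0.000183). With the tags scaled by their total the Ctsl (2.30, edgeR adjusted p = 0.081) and Prss16 (2.92, 0.108) calls were lost, as they were without the pool block (0.0862 and 0.227), and that of Ctss was kept in both.

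Between these gates 8 of 9 genes passed, 4 higher in the cortical gate and 4 lower, where 38.5% of 17078 genes passed, 19.2% higher and 19.3% lower. Ctsh (-3.82 ± 0.24, edgeR adjusted p = 9.85e-05), Ctsz (-3.06 ± 0.20, 9.85e-05) and Ifi30 (-1.06 ± 0.20, 0.00505) went with Ctss. Ctsd (0.65 ± 0.16, edgeR adjusted p = 0.0153) and Lgmn (0.74 ± 0.22, 0.0294) were called higher, but both calls held in only 4 of 10 alternatives other than the fit without the pool block. They were lost without 1-week replicate 1, without 16-week replicate 2, with DESeq2, with no filter on low counts, with the tags scaled by their total and with DESeq2 size factors, which moved the median of all genes from 0.12 to -0.07. Against a gate of UEA1-high, Sca1-high cells low in CD80 and MHC class II, which was 71.4% and 94.0% Ccl21a TEC at the 2 ages, 5 of 9 passed. Prss16 (3.97 ± 0.71, edgeR adjusted p = 0.0136) and Ctsl (2.25 ± 0.44, 0.0178) were higher in the cortical gate and Ctss (-2.05 ± 0.32, 0.00843), Ctsh (-1.49 ± 0.24, 0.0102) and Ctsz (-1.13 ± 0.20, 0.0119) lower, where 10.9% of all genes passed, 6.2% higher and 4.75% lower. The Ctsl and Ctss calls were lost without 16-week replicate 2 (1.95 and -2.08). All 5 calls were lost without the pool block and with the tags scaled by their total. The gates and the classes hold many of the same cells.

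Within cTEC the MHC class II tag, taken as the centred log ratio over all tags of a cell, went with the cortical proteases. This scale sets the tag against the other tags of the cell and is not an amount on the surface. The cTEC of each well were split into 3 equal groups by this tag, of 282, 187, 23 and 55 cells. Prss16 was at 2364, 2719, 1329 and 1987 CPM in the lowest group and at 4553, 4316, 4617 and 6235 CPM in the highest. Ctsl was at 6630 and 7139 CPM, then 5858 and 11030.0 CPM, in the lowest group, and at 15125, 14519, 13678 and 15398 CPM in the highest. Both were higher in the MHC class II-high cells in 4 of 4 wells, by 0.67 to 1.80 log2 units for Prss16 and 0.48 to 1.22 for Ctsl. Ctsz went the other way in 4 of 4 wells (-0.60 to -1.74), as did Ctsh (-0.27 to -1.29) and Ctsb (-0.12 to -0.78). Ifi30 was higher by 0.09 to 0.90, and Ctsd and Lgmn changed sign between wells. Ctss had too few UMIs to compare. Depth moved with the tag: the median cell held 5546, 5441, 11125 and 6707 UMIs in the lowest and 32749.5, 36040, 22179 and 20283 UMIs in the highest group, and its part in these differences was not tested. Without the shallow cluster led by haemoglobin genes and the cluster from 1 library, Prss16 differed by 0.74, 0.77, 1.92 and 1.64, Ctsl by 0.80, 1.02, 1.22 and 0.48, Ctsz by -1.26, -1.66, -0.84 and -0.56 and Ctsb by -0.67, -0.70, -0.58 and -0.14. Ctsh then differed by -0.05 and -0.11 at 1 week and -1.13 and -0.43 at 16 weeks. Depth still differed between these groups. The median cell held 21266, 15699.5, 8807 and 6872 UMIs in the lowest and 44820, 44751, 22448.5 and 20957.5 UMIs in the highest group.

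**Figure D5:**
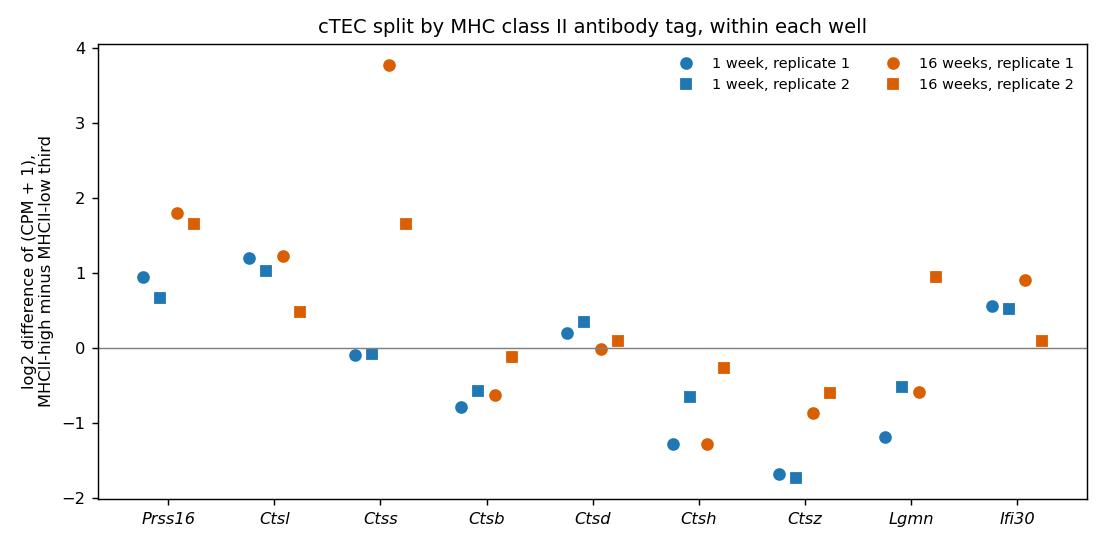
Log2 difference of CPM + 1 between the cTEC highest and lowest in the MHC class II tag (centred log ratio), for each gene. Each well has 1 symbol (circles for replicate 1, squares for replicate 2, blue for 1 week, orange for 16 weeks). Prss16 (0.67 to 1.80) and Ctsl (0.48 to 1.22) lie above 0 in all 4 wells, and Ctsz (-0.60 to -1.74), Ctsh and Ctsb below. Without 2 clusters, which the plot includes, Ctsh differed by -0.05 and -0.11 at 1 week.

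The other epithelial classes were split by the tag in the same way. In 16-week Aire TEC, the only wells with enough cells, Ctss was higher in the MHC class II-high group by 0.49 and 0.54 log2 units, whereas Ctsl, Ctsh and Ctsz changed sign between the wells. In Ccl21a TEC Prss16 was higher by 0.47 to 0.82 and Ctsh by 0.28 to 1.25 in 4 of 4 wells, and Ctsl ran from -0.63 to 1.42. As in cTEC, Ctsb (-1.10 to -0.10) and Ctsz (-0.42 to -0.09) were lower and Ifi30 (0.01 to 0.52) higher in 4 of 4 wells. These are descriptions within wells, with no test.

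The clusters within a class differed in several members, which is given as a description since the clusters came from the same cells. Among 1-week cTEC the cluster with Ccl25 and Tbata among its leading genes (329 cells) held Ctsl at 16558 CPM, Prss16 at 4862 CPM and Ctsz at 12.9 CPM. A cluster led by Chga and Pth (334 cells), which encode a protein of endocrine granules and parathyroid hormone, held 5914, 2028 and 29.6 CPM, and Lgmn at 52.1 CPM against 19.3 CPM in the former. At 16 weeks 216 cTEC of 1 cluster held Ctsl at 11603 CPM and Prss16 at 3720.2 CPM. In 16-week Aire TEC Ctsh ran from 106 CPM in the cluster led by cell cycle genes such as Aspm and Top2a to 555 CPM in one led by Reg1 and Lypd8, and Ctss from 89.1 to 255 CPM over the same pair. The cluster led by Reg1 and Lypd8, genes known from gut epithelium, also had the highest Ctsz of the 4, at 505 CPM. Without it Aire TEC held Ctss at 184, 160.5, 161 and 129 CPM. Without the cluster led by Chga cTEC held Ctsl at 14844, 14032, 10316 and 13123 CPM and Prss16 at 4492, 4326, 3049.8 and 4337 CPM, and 7, 5 and 6 of the 9 genes were called in the 3 comparisons of epithelial classes. Without the cluster led by Reg1 7, 3 and 6 were called. In 16-week Ccl21a TEC Ctsl was at 887 and 751 CPM in 2 shallower clusters and at 2509 and 2236 CPM in 2 deeper ones.

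Between the ages the wells of cTEC overlapped for the cortical pair, Prss16 and Ctsl. With 1 pool per age no test was possible, so a difference was counted only at 2-fold or more with the wells of the ages apart, among genes with a mean of at least 10 CPM at either age. Most clusters of these classes, other than those of Aire TEC, held nearly all their cells from 1 age. Of cTEC 216 cells of 16 weeks lay in a cluster led by Aqp4 and Scn1a, which held 1 cell of each 1-week well. Of Ccl21a TEC 86 and 80 cells of the 1-week wells lay in 1 cluster, which held 1 and 4 cells of the 16-week wells. The 1-week fibroblasts lay in clusters led by H19 (134 and 119 cells) and by Car3 and Adipoq (63 and 63 cells), and all but 3 and 2 of the 16-week ones in clusters led by Cxcl14, Csmd1, Sod3 and Pi16. Endothelium also formed 1 cluster for each age but for 1 cell. Differences between clusters and between ages cannot be told apart in these classes. In cTEC Prss16 differed by -0.03 and Ctsl by -0.05 log2 units between 16 weeks and 1 week. Ifi30 was lower at 16 weeks, at -1.20, and was the 1 gene of the 9 that passed that limit. In this class 10% of all genes passed, 6.92% higher and 3.12% lower. Ctsb (0.86), Ctss (0.83), Ctsz (0.78) and Ctsh (0.56) were higher and Lgmn (-0.78) lower with wells apart, all under 2-fold. Without the cluster led by Chga, which held 2 cells of 16 weeks, Ctsb differed by 1.07 and passed the limit as well, Lgmn differed by -0.31, and Ctsl differed by -0.30 with its wells apart (14844 and 14032 CPM against 10316 and 13123 CPM). The means of Ctss, Ctsh and Ctsz in 16-week cTEC were the lowest of the 6 classes.

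Prss16 was lower at 16 weeks in the 4 other classes read at both ages. The difference was -2.54 in Ccl21a TEC, -2.72 in Aire TEC, -3.61 in fibroblasts and -3.28 in endothelium. The wells at 1 week held 846 and 562 cTEC of 1846 and 1430 cells and those at 16 weeks 69 and 165 of 1939 and 4738, and the part of free cTEC RNA in these differences was not tested beyond the ratios to Psmb11 and Ccl25 above. Ctsl was lower at 16 weeks in Ccl21a TEC (-1.73) and Aire TEC (-1.88). In Ccl21a TEC the Ctsl beyond the cTEC ratio also lay apart between the ages (3796 and 3325 CPM against 1293 and 1425 CPM), but in Aire TEC it ran the other way, from -335 and -66.4 CPM to 105 and 155 CPM. In fibroblasts total Ctsl differed by -0.15 with wells overlapping, whereas the Ctsl beyond the cTEC ratio was higher at 16 weeks (487 and 698 CPM against 1378 and 1610 CPM). Ifi30 was lower in Ccl21a TEC (-1.34), Aire TEC (-1.52) and fibroblasts (-1.10). Ctss in Aire TEC differed by -0.06, with wells overlapping. In Ccl21a TEC 3 of 9 genes passed the limit, all lower (14.2% of all genes in either direction, 7.63% higher and 6.57% lower), and 3 of 9 in Aire TEC, all lower (10.2%, 7.79% and 2.39% in the same order).

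Fibroblasts of 16 weeks held more of several proteases. Ctss was higher at 16 weeks by 1.90 log2 units, Ctsh by 1.09 and Lgmn by 1.01. Ctss was above 10 CPM at 16 weeks alone, so its count among those passing follows in part from that floor. Without the cluster led by Car3 and Adipoq, a gene of fat cells, Ctss differed by 1.87, and Ctsh (0.90) and Lgmn (0.87) came under 2-fold. In the whole class Ctsb (0.99) and Ctsd (0.70) were higher with wells apart but under 2-fold. In this class 5 of 9 genes passed the limit, 3 higher and 2 lower, against 11.3% of all genes, 5.67% higher and 5.66% lower. In endothelium Ctss was higher by 1.08 and Prss16 lower, 2 of 9, against 13.5% of all genes, 6.4% higher and 7.14% lower. Endothelial Ctss was at 6.04 and 16.9 CPM at 1 week, on 5 and 14 UMIs, and at 24.8 and 25.9 CPM at 16 weeks. Its passing thus rests on few UMIs and on 1-week wells far apart. The sum of the myeloid markers was 9.88 and 19.3 CPM in 1-week and 44.1 and 37.2 CPM in 16-week fibroblasts, 35 and 25.4 CPM in 1-week and 49.6 and 48.4 CPM in 16-week endothelium. Its part in the Ctss difference was not tested.

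The genes of the compartment around the members were read from fixed lists. Of 10 genes of MHC class II presentation 1 was higher and 5 were lower in cTEC than in Aire TEC, with a median log2 fold change of -0.80 against -0.09 for all genes, of which 14.9% were higher and 21.9% lower. H2-Ob (-3.38 ± 0.45, edgeR adjusted p = 0.000702) and H2-Oa (-1.39 ± 0.30, 0.00715), which encode the inhibitor of peptide exchange, were lower, and H2-DMa (1.06 ± 0.22, 0.00546), which encodes a chain of the exchange catalyst, was higher. Of 13 tested other lysosomal proteases 1 was higher and 6 were lower (median -0.73), led by the aspartic proteases Ctse (-5.35 ± 0.96, 0.003) and Napsa (-5.10 ± 0.50, 0.000209), then Ctsc (-2.96 ± 0.49, 0.00214) and Scpep1 (-2.48 ± 0.31, 0.000508). Of 8 protease inhibitors 1 was higher and 1 lower, Cstb, the cytosolic cathepsin inhibitor stefin B, at 3.00 ± 0.31 (edgeR adjusted p = 0.000237), and Cst6, a secreted cystatin, at -1.85 ± 0.35 (0.00398). Of 13 autophagy genes 4 were higher in cTEC and none was lower (median 0.47), namely Gabarapl1 (1.43 ± 0.29, edgeR adjusted p = 0.00502), Sqstm1 (1.22 ± 0.23, 0.00419), Map1lc3b (1.07 ± 0.22, 0.00553) and Gabarap (0.85 ± 0.16, 0.00409). Of 30 other lysosomal genes 7 were higher and 4 lower (median 0.15), not far from the shares of all genes, with Mitf (2.67 ± 0.45, edgeR adjusted p = 0.00227) and Lamp2 (2.02 ± 0.18, 0.000153) among the former and Gusb (-2.71 ± 0.22, 0.000118) among the latter.

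Between cTEC and Ccl21a TEC, where 4.63% of all genes were higher and 4.49% lower, 1 of 10 MHC class II genes (H2-DMa, 0.98 ± 0.22, edgeR adjusted p = 0.0245), 4 of 13 autophagy genes and 5 of 30 other lysosomal genes were higher in cTEC, as was Cstb (2.78 ± 0.31, 0.00254). Of these 3 lists 0, 0 and 2 genes were lower, and the median of all genes was -0.09. Of 13 other proteases 2 were lower, Ctsc (-2.76 ± 0.49, edgeR adjusted p = 0.0124) and Prcp (-0.78 ± 0.20, 0.0414). Between Aire TEC and Ccl21a TEC 6 of 10 MHC class II genes and 4 of 13 other proteases were higher in Aire TEC and none lower (12.8% and 8.56% of all genes). They were led by H2-Ob (2.64 ± 0.47, edgeR adjusted p = 0.0056) and Napsa (4.02 ± 0.48, 0.00108). The sum of myeloid markers given above was higher in Aire TEC than in the other epithelial classes. Its part in the list differences that involve Aire TEC was not tested. Tuft-like TEC were below Aire TEC in 10 of 10 MHC class II genes (median -2.54 against -0.27 for all genes, of which 3.83% were lower), with Ciita, the master regulator of the class, at -3.65 ± 0.44 (0.00222).

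In fibroblasts all 10 MHC class II genes were below TEC (median -2.98 against -0.11), while 10 of 13 other lysosomal proteases were above it and 2 below (median 1.30). Of all genes 18% were higher and 15.3% lower. Ctsk, the collagen-cutting cathepsin K, differed by 5.02 ± 0.25 log2 units (edgeR adjusted p = 1.17e-06), Dpp7 by 3.43 ± 0.29 (2.73e-05) and Cpq by 2.81 ± 0.36 (0.000303). Of the 30 other lysosomal genes 13 were higher and 3 lower (median 0.48), with Igf2r, the mannose 6-phosphate receptor, at 2.79 ± 0.16 (2.62e-06). In endothelium 10 of 10 MHC class II genes were also lower (median -2.37 against -0.15), and 7 of 13 other proteases were higher and none lower (13.9% and 11.5% of all genes), Prcp by 2.34 ± 0.14 (edgeR adjusted p = 4.11e-06). Ctla2a (6.91 ± 0.15, 1.86e-08) and Ctla2b (7.18 ± 0.68, 6.56e-05), which encode cathepsin propeptide-like inhibitors, were the 2 inhibitors higher in endothelium, and 3 of 8 were lower.

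Across the 22 sums of a class and a well, the genes closest to Prss16 among 3530 compared were Psmb11 (Pearson's r = 0.986), Syngr1 (0.982), Pithd1 (0.971), Cd83 (0.952) and Psmb4 (0.952). Those closest to Ctsl were Hsd17b10 (0.947), Bri3 (0.940), Atp6v1g1 (0.939), Psmd7 (0.939) and the lysosomal membrane gene Lamp2 (0.935). Those closest to Ctss were Syt1 (0.963), Il4i1 (0.958), Tnfrsf11a (0.952), the receptor of RANKL, Plb1 (0.945) and Syngr2 (0.943). Among the members themselves r was 0.825 between Prss16 and Ctsl, 0.917 between Ctsh and Ctsz, 0.801 between Ctsd and Lgmn and -0.516 between Ctsl and Ctss. The sums share wells, free RNA and depth, so these values only describe likeness of pattern.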

How the data were processed

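The 4 libraries were deposited as tables of raw counts, in which the authors gave UMI counts per gene and antibody tag counts per cell. Per the labels and methods, the authors counted reads on mm10 with STARsolo 2.7.9a and kept cells of at least 2000 UMIs, and the lowest cell in the table had 2000. Of the 55487 gene identifiers 55141 were matched to a symbol, and the other 346 hold 0.0310% of UMIs.

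Scrublet scores were cut to remove 253 doublets (2.54%), since its automatic threshold marked 14 cells. Cells were clustered (scanpy 1.11.5, 30 components, 2000 variable genes, 10 neighbours, Louvain at a resolution of 2 for the epithelium), leaving out 96 genes that include the 9 members. Clusters were named from at least 3 markers. The resolution and the naming limits were set with these data in view.

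Counts were summed over cells of a pool and class (at least 20 cells) and tested with edgeR 4.0.16 in R 4.3.3 (quasi-likelihood, TMM, pool as block, Benjamini-Hochberg over all genes tested, threshold 0.05), after a self-test on simulated counts. The pool block is the age, since all classes of an age come from the same mice. Values per well are CPM of summed counts, and ratios and age differences use CPM + 1. Tag gates were cut on the centred log ratio at the limit of a 2-component mixture. DESeq2 1.42.0, another size factor, filters, replicates left out and other cluster settings were alternatives. The p-values measure how far the class differences varied between the 2 pools, which are also the 2 ages. The block removes the difference between the pools themselves, and no spread between mice enters.

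Members are all 9 genes of the list. Other genes were named as the called genes of a pathway list with the largest fold changes, at most 4 a list, and the 5 most alike by Pearson's r among genes of at least 50 CPM. The members and lists were chosen with earlier results of these data known. The myeloid-free cells, the Ctsl beyond the cTEC ratio the MHC class II groups without 2 clusters and the classes without a cluster were added after the data were seen. Levels of different genes are not compared, since counts came from 3′ ends. Ctsd shares exons with the readthrough gene Gm49369, listed at 0 UMIs, and an antisense gene, Gm47123, overlaps Ctsl with 2649 UMIs against 588317. Fdft1 overlaps Ctsb (2559 against 24565) and Nelfcd overlaps Ctsz (2517 against 18813), so the levels of Ctsb and Ctsz are less certain. One gene of a pathway list is left out of the text.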

Additional observations from a re-analysis of the deposited data

Results flagged for a closer look

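Ctss differed between fibroblasts and cTEC in opposite directions at the 2 ages. On the scale of log2(CPM + 1), fibroblasts minus cTEC gave -0.91 and -0.65 in the 1-week wells and 0.37 and 0.17 in the 16-week wells. The difference at 16 weeks was thus 1.05 above that at 1 week. Every well of an age had the same sign, and the difference between the ages was not tested, as each age is 1 pool. The Ctss levels behind it were low, at 2.75 to 15.6 CPM. At 16 weeks the wells of the classes overlapped, at 11.2 to 15.6 CPM in fibroblasts and 9.79 to 11.8 CPM in cTEC. The counts were 12 and 10 UMIs in 1-week fibroblasts and 14 and 27 UMIs in 16-week cTEC.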

How the results depend on the processing

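No member's called fold change changed sign in any alternative run. The 7 calls between cTEC and Aire TEC held in all 16 alternatives other than the fit without the pool block, as did Prss16 between cTEC and Ccl21a TEC, Ctsl, Ctsh, Ctsz and Ifi30 between Aire TEC and Ccl21a TEC and Ifi30 between tuft-like and Aire TEC. Of the fold changes of the 9 genes over all comparisons and alternatives, 1021 stayed on their side of the threshold, 20 came to pass it and 75 ceased to, 29 of them without the pool block. Without the replicate block for the pool edgeR called 4 of 9 genes between cTEC and Aire TEC, 0 between cTEC and Ccl21a TEC (5 at an unadjusted p under 0.05; DESeq2 with the block called 5), 2 between Aire TEC and Ccl21a TEC, 0 between tuft-like and Aire TEC (4 unadjusted; DESeq2 with the block 4), 6 for fibroblasts, 5 for endothelium, and 3 and 0 for the cortical gate against the mature medullary and the UEA1-high Sca1-high gates (5 and 4 unadjusted; DESeq2 with the block 6 and 5). With libraries as the sums and as the replicate block 8, 7, 6, 5, 9, 8, 8 and 7 were called in the same order. Leaving out each library in turn gave 2 to 5 calls between cTEC and Ccl21a TEC, the lowest without 1-week replicate 2, and 3 to 5 between the cortical and the UEA1-high Sca1-high gates, the lowest without 16-week replicate 2. A marker level of 0.1 left 1 call between cTEC and Ccl21a TEC, 20 neighbours left 1 between tuft-like and Aire TEC, and scaling the tags by their total left 4 and 0 for the gates (7 and 3 unadjusted), the cortical pair Prss16 and Ctsl being among those lost. Without the Aire TEC cluster led by Reg1, chosen after the data were seen, 3 were called between cTEC and Ccl21a TEC, Ctsh (-1.42) and Ctsz (-1.01) being lost there and Ctsz (-1.57) between tuft-like and Aire TEC. The cause of these changes was not tested. The Ctsl to Ctss difference between cTEC and Aire TEC was 7.57 with the mean of single-cell CPM, and that between cTEC and Ccl21a TEC was 4.31 with 20 neighbours, 3.71 with a marker level of 0.1, 3.61 with the mean of single-cell CPM and 3.59 with a prior of 5 CPM. Of the age differences 540 stayed within the spread between wells and 90 moved further, and 24 values in 13 of 45 differences changed sign, none of them in a difference that had passed the limit. Over all genes, the fit without the block called 4183 against 6855 genes, 42 against 1699, 1424 against 3985, 442 against 1469, 3978 against 6209, 3116 against 4734, 2870 against 6577 and 0 against 1869 (3027 unadjusted), in the order given above. Sums per library called 5188 between cTEC and Ccl21a TEC, 7220 between Aire TEC and Ccl21a TEC, 4297 between tuft-like and Aire TEC, 7111 for endothelium and 4163 for the cortical against the UEA1-high Sca1-high gate. Without a filter on low counts 2342 genes were called between tuft-like and Aire TEC and 2888 between the last gates. Without 16-week replicate 2 the gates gave 3742 and 657, and with total tag scaling 1239 and 82. Keeping doublets gave 2613 between cTEC and Ccl21a TEC, and 20 neighbours 1915 between Aire TEC and Ccl21a TEC. With DESeq2 size factors the share of gate calls that were higher went from 49.9% to 36.4% and from 56.6% to 44.1%. No paired analysis was possible between the ages because each is 1 pool and its wells share only a number. Low counts of Ctss and Lgmn and 1 pool per age limit what can be told.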

Other observations

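Prss16 and Ctsl were also counted in a cluster led by the T cell receptor genes Trbc1 and Trbc2, which was present although CD45-positive cells had been depleted. Its cells held Prss16 at 3137 and 3286 CPM in the 1-week wells (84 and 61 cells) and at 2633 CPM in 16-week replicate 2 (44 cells), and Ctsl at 7942, 9053 and 5468 CPM. Ctss was at 8.34, 5.21 and 48.5 CPM. The sum of 10 thymocyte markers was 5003, 5478 and 3293 CPM, and Prss16 stood to Psmb11 at 4.09, 5.52 and 5.31. The cluster thus carried RNA of thymocytes and of cTEC together, and whether its droplets held joined cells, thymocytes with free cTEC RNA or both was not tested. Prss16 was nearer to the level of cTEC than to that of any other class, whereas Ctsl lay between cTEC and Ccl21a TEC.

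Mesothelial cells, read at 1 week only (42 and 44 cells), held Ctsb at 440 and 418 CPM and Ctsd at 270.5 and 266 CPM, with 0 and 2 UMIs of Ctss. Mural cells held Ctsl at 1375 and 1337 CPM at 1 week and at 374 and 326 CPM at 16 weeks, and Prss16 at 489, 431, 33.6 and 39.5 CPM.

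Genes near Ctsl on chromosome 13 encode cathepsins best known from the placenta. Ctsj was called lower in cTEC than in Aire TEC (edgeR log2 fold change -7.72 ± 0.96, adjusted p = 0.000528). Of its 668 UMIs in all cells, 600 lay in a single Aire TEC of 1-week replicate 2, a cell of 59855 UMIs, and 64 cells had any. No fit without that cell was made. Ctsq and Cts6, also called lower in cTEC, had 33 and 9 UMIs in 1-week Aire TEC.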
